A study of Mus musculus with 8 samples.

Results

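Leukotriene and lipoxygenase pathway genes were described in sorted mouse eosinophils from 2 tissues, the bone marrow and the small intestine. The group held 10 of the 38392 genes in the deposited table, and each was the single row whose gene symbol equalled Alox5, Alox5ap, Ltc4s, Lta4h, Alox12, Alox15, Cysltr1, Cysltr2, Ltb4r1 or Pla2g4a. The question was how the transcripts for making and sensing these lipids differ between eosinophils at their site of production and eosinophils resident in the gut. There were 4 libraries per tissue, all from female wild-type mice of the strain labelled C57/BL6, and no treatment was given. The labels give no age. Bone marrow cells were sorted as CD11b+Ly6G-Ly6C-SiglecF+SSChi and intestinal cells as CD11b+MHC-II-SiglecF+SSChi. Per the methods of the study, intestinal tissue was digested and its cells were enriched on anti-CD11b beads, while bone marrow was flushed. Tissue and handling cannot be told apart in this design.

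Leukotrienes are lipid mediators made from arachidonic acid, which cytosolic phospholipase A2 releases from membranes. The enzyme 5-lipoxygenase, helped by its activating protein, turns arachidonic acid into leukotriene A4, which is then either hydrolysed to leukotriene B4, an attractant of leukocytes, or joined to glutathione to give leukotriene C4, the parent of the cysteinyl leukotrienes. Other lipoxygenases insert oxygen elsewhere in the chain, and mouse Alox15 (12/15-lipoxygenase) is the form known from eosinophils and resident macrophages. Eosinophils are a classical source of cysteinyl leukotrienes, which constrict smooth muscle and make vessels leaky.

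A normalised count below is the number of reads recovered from a deposited value over the size factor of the library it came from. Totals ran from 11508002 to 21289164 reads per library, and the libraries keep the names of the table columns, where bone marrow has BM_1, BM_3, BM_4 and BM_5, and small intestine has SI_10, SI_11, SI_6 and SI_7. A difference is the mean of small intestine less that of bone marrow, on the log2-like scale of the table, and a gene was called where its limma p-value, adjusted over all 38392 genes by the Benjamini-Hochberg method, was under 0.05. The median difference of all genes was 0.37. The label of the sorted cells was compared with marker genes. The 6 eosinophil markers, Siglecf, Ccr3, Il5ra, Epx, Prg2 and Adgre1, had reads in both tissues and summed to between 2481 and 3478 normalised counts in bone marrow and between 29399 and 40620 in small intestine. They did not move together, as 4 were called higher in small intestine and 2 lower. Ccr3, Il5ra, Adgre1 and Siglecf rose 231-, 100-, 85.0- and 5.30-fold by mean normalised counts. Epx fell from a mean of 350 to 20.6 and Prg2 from 1831 to 147. The 8 neutrophil precursor markers summed to between 310617 and 397384 in the libraries labelled bone marrow eosinophils and between 424 and 522 in small intestine. Mpo, of neutrophil precursors, had between 127019 and 174314 normalised counts in bone marrow, where Epx, the eosinophil peroxidase, had between 303 and 398, so the leading transcripts of these libraries went against their label. In small intestine the 8 epithelial markers ranged from 4608 in SI_10 to 32316 in SI_6, and they reached at most 193 in bone marrow. BM_5 held reads for 30886 genes against 19713 to 24592 in the other bone marrow libraries. In sorted bulk cells, fewer cells of a type and less RNA per cell cannot be told apart.

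Of the 10 genes, 6 were called higher in small intestine, 1 was called lower and 3 did not pass. Over all genes, 34.9% were called, 22% higher and 12.9% lower. The median difference of the 10 was 1.47. The 4 libraries of one tissue did not overlap with those of the other for 9 of the 10, against 34.3% of all genes. Most of the 10 were well covered, and coverage moved the share called. Among 16215 genes averaging 10 reads or more per library, a cutoff added after seeing the data, 72.9% were called in a fit of those genes alone, and of the 9 members in it 7 were called higher and 1 lower. A call of this kind was thus common among covered genes.

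**Figure D1:**
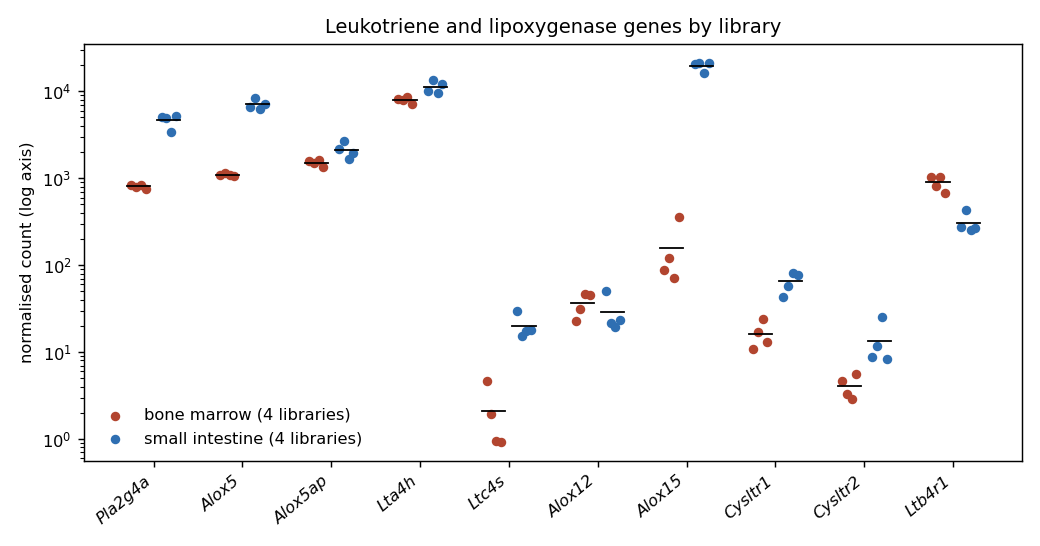
Normalised counts (log axis) of the 10 genes, with a point for each of the 4 bone marrow (red) and 4 small intestine (blue) libraries and a line at the mean of each tissue. Alox15 spanned 70.8 to 357 in bone marrow and 16437 to 21209.5 in small intestine, whereas the points of Alox12 overlapped between the tissues.

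The upstream sequences of 4 genes are shown because they passed the test and because the transcript start in RefSeq fell on the first base of the gene in the annotation. RefSeq promoters (GRCm38.p6) matched 7 of the 10 members. The letters run 5′ to 3′ on the strand of the gene up to the base before its start, and capitals mark matches, on either strand, to the motifs searched. These were GCGTG, the core bound by the aryl hydrocarbon receptor with its partner, AGATAA and TGATAA for GATA factors, AGGAAGT and AGGAACT for PU.1, TTC, NNNN and GAA in a row for STAT6 and GGGCGG, the GC box. Each window printed held a single match, so none overlapped.
Alox5 (chr6:116461179-116461428, minus strand): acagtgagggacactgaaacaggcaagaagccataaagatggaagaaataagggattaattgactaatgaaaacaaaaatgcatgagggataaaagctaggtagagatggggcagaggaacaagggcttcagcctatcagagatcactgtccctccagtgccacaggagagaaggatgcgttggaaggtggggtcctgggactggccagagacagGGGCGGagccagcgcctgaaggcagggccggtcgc
Pla2g4a (chr1:149961291-149961540, minus strand): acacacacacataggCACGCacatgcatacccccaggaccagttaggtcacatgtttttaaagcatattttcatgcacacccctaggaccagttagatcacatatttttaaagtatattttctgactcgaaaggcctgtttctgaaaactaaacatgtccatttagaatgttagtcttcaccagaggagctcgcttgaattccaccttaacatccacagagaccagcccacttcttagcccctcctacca
Ltb4r1 (chr14:55765712-55765961, plus strand): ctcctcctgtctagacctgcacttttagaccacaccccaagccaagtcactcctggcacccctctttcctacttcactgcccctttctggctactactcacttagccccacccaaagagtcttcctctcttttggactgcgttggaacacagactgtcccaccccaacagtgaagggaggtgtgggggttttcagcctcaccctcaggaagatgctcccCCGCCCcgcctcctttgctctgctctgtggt
Cysltr2 (chr14:73049115-73049364, minus strand): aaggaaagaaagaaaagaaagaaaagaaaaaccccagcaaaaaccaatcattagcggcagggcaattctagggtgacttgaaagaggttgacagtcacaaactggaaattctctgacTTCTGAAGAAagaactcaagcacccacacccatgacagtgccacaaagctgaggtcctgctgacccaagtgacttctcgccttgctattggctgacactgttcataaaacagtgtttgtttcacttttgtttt
Alox5, which rose, and Ltb4r1, which fell, each held a single GC box match and no other in the window printed. Its first base lay at -35 in Alox5 and at -31 in Ltb4r1, counted from -1 at the base before the start. Pla2g4a held a single match to the core motif of the aryl hydrocarbon receptor at -235 in the window printed, and Cysltr2 a single STAT6 match at -133. Among 32851 mouse promoter windows of the same length, 32.7% held GGGCGG, 28.2% held GCGTG, 16.6% a GATA motif, 12.1% a PU.1 motif and 5.85% the STAT6 motif. RefSeq lists a second Pla2g4a promoter inside the gene (chr1:149922440-149922689), which held 2 GATA matches and a PU.1 match at -14 but no GCGTG. A match is a description of the letters only.

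Release of arachidonic acid was represented by Pla2g4a (ENSMUSG00000056220, GRCm38 chromosome 1, 149829618 to 149961290), which encodes cytosolic phospholipase A2 alpha. It had 837, 795, 827 and 760.5 normalised counts in BM_1, BM_3, BM_4 and BM_5, and 5078, 4909, 3362 and 5137 in SI_10, SI_11, SI_6 and SI_7. The tissues did not overlap, and SI_6 was the lowest intestinal library. Pla2g4a rose 5.74-fold by mean normalised counts (difference 2.50 ± 0.20, SE, n = 4 each, limma adjusted p = 3.49e-05).

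The 5-lipoxygenase gene Alox5 (ENSMUSG00000025701, chromosome 6, 116410077 to 116461178) makes leukotriene A4. Its normalised counts were 1078, 1163, 1087 and 1052 in BM_1, BM_3, BM_4 and BM_5, a narrow range. In SI_10, SI_11, SI_6 and SI_7 they were 6627, 8349, 6235 and 7208.5. Every intestinal library was thus above every bone marrow library, and Alox5 rose 6.49-fold (difference 2.69 ± 0.18, limma adjusted p = 1.23e-05). Its partner Alox5ap (ENSMUSG00000060063, chromosome 5, 149264767 to 149288153) encodes the activating protein that presents arachidonic acid to 5-lipoxygenase. It had 1574, 1499, 1624 and 1342 normalised counts in bone marrow and 2162, 2647, 1649 and 1946 in small intestine, in the same order of libraries. The lowest intestinal library, SI_6, lay just above the highest bone marrow library. The difference of 0.46 ± 0.21 did not pass (limma adjusted p = 0.126, 95% interval -0.01 to 0.93). It was close to the median of all genes, 0.37, where genes averaging 10 reads or more had a median of 0.12. It turned to -0.44 when each library was centred on its median, and without SI_6 it was 0.57 and passed (limma adjusted p = 0.0341).

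Leukotriene A4 hydrolase, which gives leukotriene B4, is encoded by Lta4h (ENSMUSG00000015889, chromosome 10, 93453411 to 93484875). Bone marrow libraries BM_1, BM_3, BM_4 and BM_5 had 8112, 7907, 8672 and 7068 normalised counts, and SI_10, SI_11, SI_6 and SI_7 had 10131, 13351, 9476 and 12037. The tissues did not overlap, but the difference of 0.49 ± 0.19 did not pass (limma adjusted p = 0.0818, 95% interval 0.05 to 0.93). Its direction depended on scaling, with -0.41 after median-centring and -0.31 after quantile normalisation. Leaving out SI_10 or SI_6 brought it past the threshold, at 0.54 and 0.57 (limma adjusted p = 0.0358 and 0.0291).

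The other branch goes through Ltc4s (ENSMUSG00000020377, chromosome 11, 50236461 to 50238616), leukotriene C4 synthase, the enzyme that commits leukotriene A4 to the cysteinyl leukotrienes. It was sparse in both tissues, with 11 reads over all bone marrow libraries and 69 over all intestinal ones. Normalised counts were 4.597, 1.96, 0.957 and 0.930 in BM_1, BM_3, BM_4 and BM_5 and 29.5, 15.4, 17.5 and 18.03 in SI_10, SI_11, SI_6 and SI_7. All intestinal libraries were higher, and Ltc4s rose by 2.24 ± 0.31 on the deposited scale, which understates changes of genes with few reads (limma adjusted p = 0.000592). By mean normalised counts this was 9.53-fold, and 15.7-fold without BM_1, which held 6 of the 11 bone marrow reads. Mast cells and tuft cells also express Ltc4s. The mast cell markers Tpsb2 and Mcpt4 were at 8.32 and 1.09 normalised counts or less in every library, and the 8 mast cell markers summed to between 577 and 1856 in small intestine and between 2533 and 3531 in bone marrow, most of it from Kit. Other markers of the list went the other way, as Mcpt1 was called higher in small intestine with 1 read from bone marrow and 30 from small intestine (limma adjusted p = 0.00166), and Mcpt2 had 3 and 20 reads and did not pass (limma adjusted p = 0.0803). The 8 tuft cell markers summed to between 6.90 and 52.1 in bone marrow, where Il25 had no reads, and to between 115 and 231 in small intestine. They were highest in SI_10, as was Ltc4s. The part of mast and tuft cells in the result was not tested. The exons of Ltc4s and Alox5ap each overlap a predicted gene on the opposite strand (Gm26542 and Gm19719), and since the strand setting of the counting is not given in the sources used here, reads of the partners cannot be told apart.

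**Figure D2:**
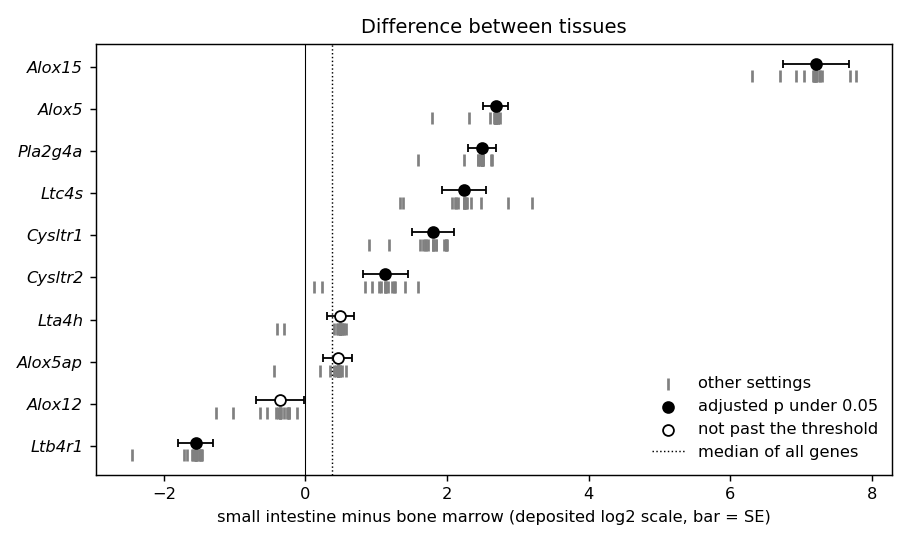
Difference between tissues on the deposited log2 scale for each gene (circles with SE, filled where the limma adjusted p was under 0.05), with ticks for the value under every other setting tried and a dotted line at the median of all genes, 0.37. Alox15 stands at 7.21, and the ticks of Lta4h and Alox5ap lie on both sides of 0.

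Among the lipoxygenases, Alox15 differed most. Alox15 (ENSMUSG00000018924, chromosome 11, 70344152 to 70352031) had 88.1, 121, 70.8 and 357 normalised counts in BM_1, BM_3, BM_4 and BM_5. In SI_10, SI_11, SI_6 and SI_7 it had 20497, 20956, 16437 and 21209.5. BM_5 was the highest of the bone marrow libraries by a wide margin and still far below every intestinal library. Alox15 rose 124-fold by mean normalised counts, and 212-fold without BM_5 (difference 7.21 ± 0.46, limma adjusted p = 1.02e-05). Resident macrophages also express Alox15. The 9 macrophage markers all had reads in both tissues and summed to between 625 and 823 normalised counts in bone marrow and between 2089 and 3062 in small intestine, the latter led by Csf1r. Of the 9, 6 were called higher in small intestine, and Fcgr1, Cd163 and Mrc1 did not pass. The differences of Cd163 and Mrc1 were -0.79 and -0.62. Cd68, Mertk and C1qb averaged 429, 207 and 185 normalised counts in small intestine, while C1qa and Fcgr1 reached at most 135 and 27.3 in any library. Eosinophil markers also differed between the tissues, as Ccr3, Il5ra and Adgre1 rose 231-, 100- and 85.0-fold by mean normalised counts. Siglecf rose 5.30-fold, while Epx and Prg2 were lower in small intestine. More eosinophils among the sorted cells and more Alox15 per eosinophil cannot be told apart here. The part of macrophages and that of eosinophil content in the result was not tested.

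Platelet-type 12-lipoxygenase, Alox12 (ENSMUSG00000000320, chromosome 11, 70241457 to 70255353), was low and overlapped between the tissues. It had 23.0, 31.3, 46.9 and 45.6 normalised counts in the bone marrow libraries and 50.3, 21.3, 19.6 and 23.6 in the small intestine libraries. The highest value of all was in SI_10, while SI_11 and SI_6 were below the bone marrow range and SI_7 was within it. The difference of -0.36 ± 0.34 did not pass (limma adjusted p = 0.464, 95% interval -1.14 to 0.42), although after median-centring it was -1.26 and passed (limma adjusted p = 0.0234). The 10 platelet and megakaryocyte markers all had reads in both tissues. Their sums, 169 to 315 in bone marrow and 839 to 1161 in small intestine, were led in the intestine by Itga2b and Ppbp, while Gp9 was at most 8.75 there and between 66.0 and 115 in bone marrow.

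To compare levels between genes, reads were divided by the length of the annotated exons and scaled to the same total in every library (TPM). In bone marrow Alox5 made up between 59.3% and 86.2% of the summed TPM of the 7 mouse lipoxygenase genes (Alox5, Alox12, Alox15, Alox8, Alox12b, Alox12e and Aloxe3), and Alox15 between 9.39% and 33.7%. In small intestine Alox15 made up between 80.1% and 82.8% and Alox5 between 16.0% and 19.1%. The ratio of Alox15 to Alox5 TPM was 0.137, 0.174, 0.109 and 0.568 in BM_1, BM_3, BM_4 and BM_5, and 5.18, 4.1996, 4.41 and 4.92 in SI_10, SI_11, SI_6 and SI_7. So the more abundant lipoxygenase transcript was Alox5 in every bone marrow library and Alox15 in every intestinal library. The summed TPM of the 7 genes was between 36.3 and 61.1 in bone marrow and between 1232 and 1741 in small intestine.

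**Figure D3:**
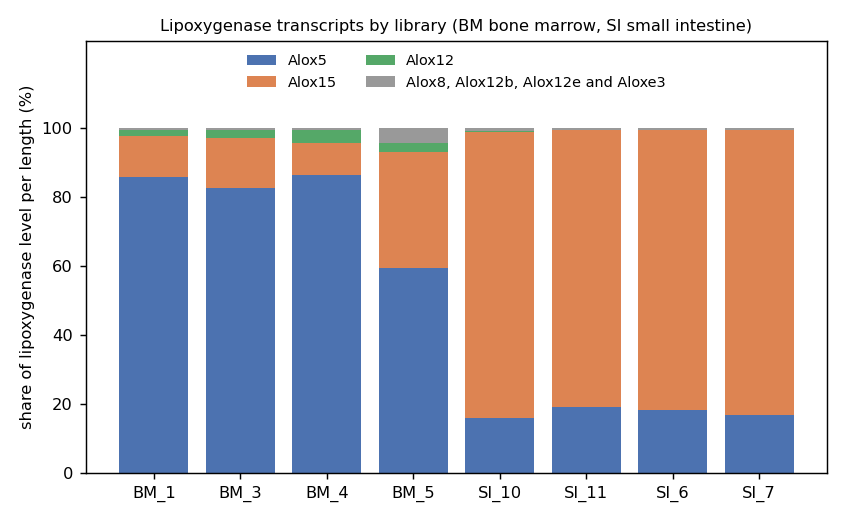
Share (%) of each lipoxygenase gene in the summed TPM of all 7 lipoxygenases, with a bar for each library. Alox5 is the larger part in all 4 bone marrow libraries, least so in BM_5 at 59.3%, and Alox15 the larger part in all 4 small intestine libraries, at 80.1% to 82.8%.

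The receptors moved in different directions. Ltb4r1 (ENSMUSG00000046908, chromosome 14, 55765962 to 55768494), the high-affinity receptor for leukotriene B4, was the only one of the 10 genes to be called lower. It had 1044, 820, 1034 and 676 normalised counts in BM_1, BM_3, BM_4 and BM_5 and 271, 427, 254 and 266 in SI_10, SI_11, SI_6 and SI_7. The tissues did not overlap, with SI_11 above the other intestinal libraries. Ltb4r1 fell, with a mean 2.93-fold higher in bone marrow (difference -1.55 ± 0.25, limma adjusted p = 0.00145). Neutrophils also carry this receptor, and the sums of neutrophil precursor markers given above were higher in every bone marrow library, from 310617 to 397384, and their part in the result was not tested.

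Cysltr1 (ENSMUSG00000052821, chromosome X, 106574346 to 106603679) encodes the receptor for leukotriene D4 that the anti-asthma drug montelukast blocks. Normalised counts were 10.7, 16.96, 23.9 and 13.02 in the bone marrow libraries and 42.7, 58.1, 81.9 and 77.7 in SI_10, SI_11, SI_6 and SI_7. The tissues did not overlap and Cysltr1 rose by 1.80 ± 0.29 (4.03-fold by mean normalised counts, limma adjusted p = 0.0015), but after median-centring the difference was 0.90 and no longer passed (limma adjusted p = 0.122). Cysltr2 (ENSMUSG00000033470, chromosome 14, 73025603 to 73049114), the second receptor for cysteinyl leukotrienes, is known from endothelium as well as leukocytes. It rested on 20 reads from bone marrow and 47 from small intestine, with 4.597, 3.26, 2.87 and 5.58 normalised counts in BM_1, BM_3, BM_4 and BM_5 and 8.75, 11.9, 25.1 and 8.32 in SI_10, SI_11, SI_6 and SI_7. Its call was fragile. Cysltr2 rose by 1.13 ± 0.32 (limma adjusted p = 0.0237), but the call was lost without BM_1, BM_3 or BM_4, with limma voom, with an intensity trend and under both other scalings, where the difference was 0.23 and 0.12. The 7 endothelial markers summed to between 382 and 496 in bone marrow and between 7446 and 9868 in small intestine, most of it from Pecam1, and the sum was lowest in SI_6, where Cysltr2 was highest. Cdh5 and Kdr, which define endothelium more closely than Pecam1, were highest in SI_6, at 126 and 141, and reached at most 12.1 and 22.3 in bone marrow. Vwf, Tek, Emcn and Cldn5 averaged 117, 62.0, 36.8 and 7.98 normalised counts in small intestine, and Cldn5 varied little there (SD 0.38). All 7 were called higher in small intestine. The part of endothelial cells in the result was not tested. Per length, the ratio of Cysltr1 to Ltb4r1 was between 0.00279 and 0.00627 in bone marrow and between 0.0369 and 0.0873 in small intestine, so Ltb4r1 stayed the more abundant receptor transcript in all libraries.

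By mean TPM the order in bone marrow was Lta4h, Alox5ap, Ltb4r1, Alox5, Pla2g4a, Alox15, Alox12, Cysltr1, Ltc4s and Cysltr2. Lta4h (171 ± 27.3, SD, n = 4) and Alox5ap (139 ± 20.7) had overlapping libraries, as had Pla2g4a (16.5 ± 2.03) and Alox15 (8.70 ± 7.94), and each of the last 4 genes overlapped with its neighbour. In small intestine the order was Alox15, Lta4h, Alox5, Alox5ap, Pla2g4a, Ltb4r1, Ltc4s, Cysltr1, Alox12 and Cysltr2. Alox15 stood clear at 1269 ± 210 TPM, ranking at 38 among 20623 protein-coding genes, against 5862 in bone marrow. Lta4h (288 ± 41.4), Alox5 (271 ± 30.1) and Alox5ap (232 ± 42.8) overlapped with each other in turn, and so did the last 4 genes, from Ltc4s (3.17 ± 1.28) to Cysltr2 (0.723 ± 0.388). Lta4h had nearly the same rank in both tissues, 227 in bone marrow and 242 in small intestine, as had Alox5ap, 282 and 303. In bone marrow these are levels of whole libraries, where neutrophil precursor markers summed to between 310617 and 397384 normalised counts. Eosinophil markers summed to between 2481 and 3478 there. The part of neutrophil precursors in the bone marrow levels, and in the lipoxygenase shares above, was not tested.

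Some libraries stood at the edge of their tissue for many members. SI_6, the library with the most epithelial marker counts, was the lowest of the intestinal libraries for 7 of the 10 genes, among them Alox15, Alox5, Pla2g4a and Ltb4r1. It was the highest for Cysltr1 and Cysltr2. BM_5 was the lowest bone marrow library for 6 of the 10 and the highest for Alox15 and Cysltr2. Siglecf was likewise lowest in SI_6, at 2646 normalised counts against 2848 to 3820 in the other intestinal libraries. Without both BM_5 and SI_6, an alternative added after seeing the data, 8 genes were called higher and 1 lower, the additional calls being Alox5ap and Lta4h. Calls also rose over all 38392 genes in that setting, to 9600 higher and 5211 lower, from 8465 and 4937.

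The genes whose profile was most like that of Alox15 and Ltb4r1, the members with the largest rise and fall, were sought by the smallest root-mean-square difference over the 8 libraries after each gene was centred on its mean. For Alox15 they were Il1bos (0.21 on the log2 scale), Nlrp1b (0.30) and Aox4 (0.32), which had 690, 1072 and 978 mean normalised counts in small intestine. For Ltb4r1 they were Parvg (0.13), Gna12 (0.15) and Cd63 (0.16). With 2 tissues, such likeness mostly reflects the size of the tissue difference.

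The wider pathway was taken as 39 other genes in 6 lists. Of these, 23 were called higher in small intestine, 4 were called lower and 12 did not pass, with a median difference of 1.66, where 34.9% of all genes and 72.9% of those averaging 10 reads or more were called. For 26 of the 39 the tissues did not overlap, against 34.3% of all genes.

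**Figure D4:**
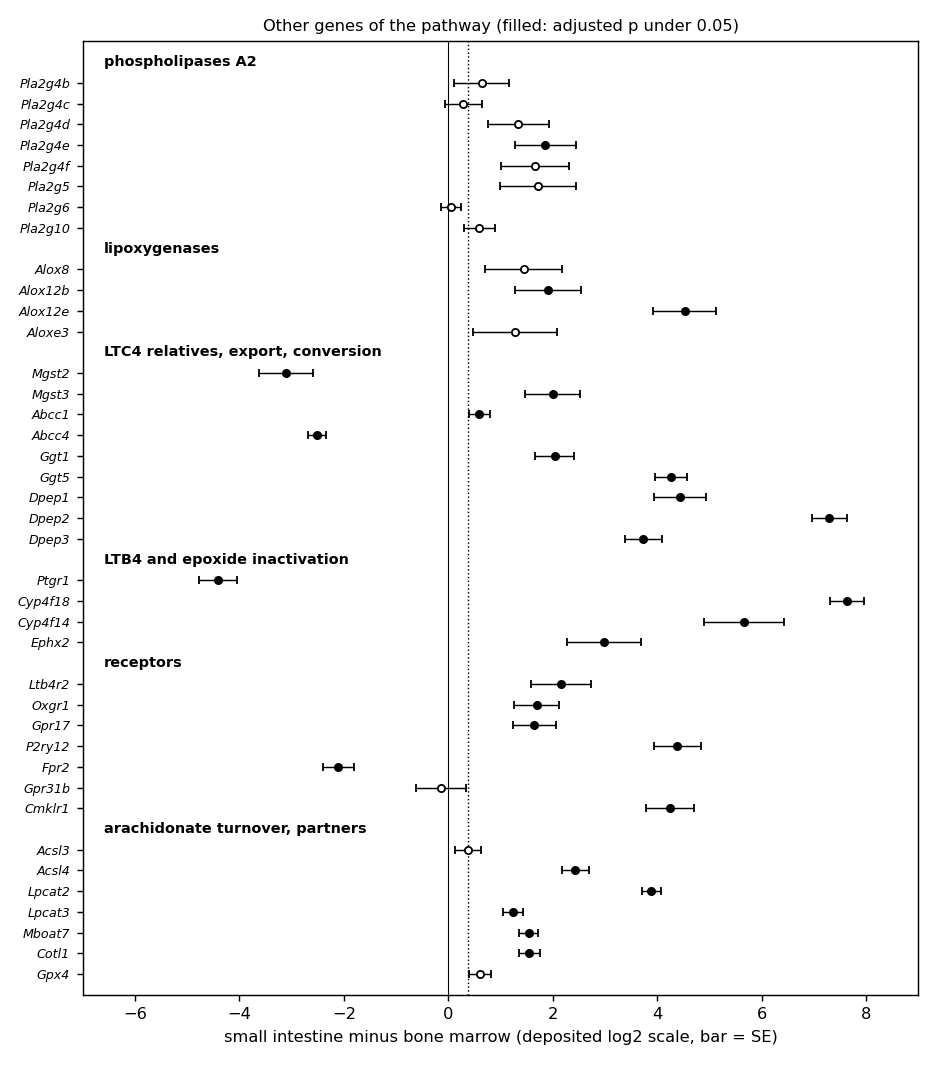
Difference between tissues on the deposited log2 scale for 39 other genes of the pathway, grouped by list (points with SE, filled where the limma adjusted p was under 0.05), with a dotted line at the median of all genes. Cyp4f18 (7.64) and Dpep2 (7.29) stand farthest to the right and Ptgr1 (-4.41) farthest to the left.

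Of the genes for steps around leukotriene C4, all 9 were called in the limma fit, 7 higher and 2 lower. The share called was 34.9% of all genes in that fit and 72.9% of covered genes in a fit of those alone. After export, gamma-glutamyl transferases and dipeptidases trim leukotriene C4 to D4 and E4. The dipeptidase gene Dpep2 had 6.13, 6.52, 1.91 and 10.2 normalised counts in BM_1, BM_3, BM_4 and BM_5 and 1436, 1703, 1011 and 1571 in SI_10, SI_11, SI_6 and SI_7. It rose by 7.29 ± 0.33 (limma adjusted p = 2.03e-06). Its exons overlap Dus2 and other genes, so its reads are uncertain. Ggt5, a transferase that acts on leukotriene C4, rose by 4.26 ± 0.30, from 7.65 to 23.5 normalised counts in bone marrow to 313 to 412 in small intestine. Of the exporters, Abcc4 fell from 1982 to 2288 normalised counts to 348 to 381 (difference -2.51 ± 0.17, limma adjusted p = 1.22e-05). Abcc1, the main leukotriene C4 exporter, was called higher by 0.59 ± 0.20 (limma adjusted p = 0.0458), a direction that turned to -0.31 after median-centring. The call was also lost after quantile normalisation (0.31) and without BM_1, BM_3, BM_4, SI_11 or SI_7.

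Mgst2, a relative of Ltc4s that can also conjugate leukotriene A4 to glutathione, had the largest fall of this list. It had between 1512 and 1839 normalised counts in bone marrow and 86.4, 119, 261 and 536 in SI_10, SI_11, SI_7 and SI_6. Mgst2 fell by 3.11 ± 0.52 on the deposited scale (limma adjusted p = 0.00176), and by mean normalised counts it was 6.85-fold higher in bone marrow, or 11.1-fold without SI_6. Its level in bone marrow was therefore far above that of Ltc4s, also per length, with a mean of 60.7 TPM against 0.258. Its intestinal libraries stood in the same order as the epithelial marker sums, which were 4608, 5198, 14674 and 32316. The same order held for Mgst3 (65.6, 86.5, 166 and 429), Ptgr1 and Cyp4f14, 4 of the 39 genes in all, and for Cysltr1 among the members, where 7.63% of all genes showed it. What the epithelial cells contributed was not tested.

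**Figure D5:**
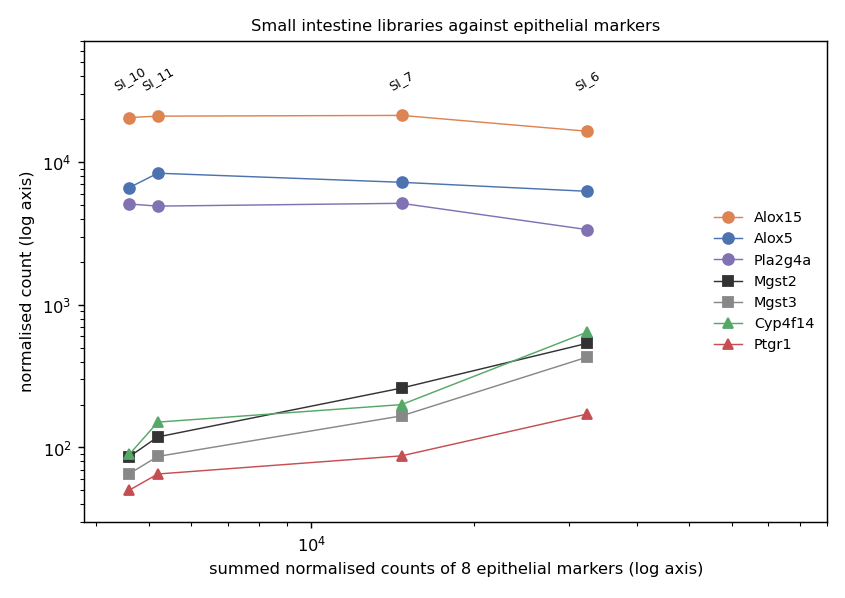
Normalised counts (log axis) in the 4 small intestine libraries against the summed normalised counts of 8 epithelial markers (log axis), with lines joining the libraries for each gene. Mgst2, Mgst3, Cyp4f14 and Ptgr1 rise from SI_10 to SI_6, whereas Alox15, Alox5 and Pla2g4a are lowest in SI_6.

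The list for inactivation of leukotriene B4 and of epoxides was split, with 3 of 4 genes called higher and 1 lower. The share called was 34.9% of all genes and 72.9% of covered genes. Cyp4f18, which oxidises leukotriene B4 at its tail in mouse myeloid cells, had 16.9, 52.8, 33.5 and 32.5 normalised counts in BM_1, BM_3, BM_4 and BM_5 and 7778, 8081, 5398 and 7189 in SI_10, SI_11, SI_6 and SI_7. It rose by 7.64 ± 0.32 (limma adjusted p = 1.34e-06), and its exons overlap Zfp961 on the opposite strand. Ptgr1, which oxidises leukotriene B4 by another route, fell from between 1585 and 2178 normalised counts to 50.3, 65.2, 87.4 and 171 in SI_10, SI_11, SI_7 and SI_6 (difference -4.41 ± 0.36, limma adjusted p = 3.48e-05). Cyp4f14 and, for epoxides, Ephx2 were called higher, by 5.66 and 2.98, with SI_6 the highest library for both.

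Among 7 other receptors for leukotrienes and lipoxygenase products, 5 were called higher and 1 lower. The share called was 34.9% of all genes and 72.9% of those averaging 10 reads or more. P2ry12, the platelet ADP receptor that has also been linked to leukotriene E4, rose by 4.38 ± 0.45 and Cmklr1, a receptor for resolvin E1 and chemerin, by 4.25 ± 0.45. Fpr2, a formyl peptide and lipoxin receptor, fell from 65.9 to 73.4 normalised counts in bone marrow to 7.64 to 21.3 in small intestine (difference -2.11 ± 0.30, limma adjusted p = 0.00076). Its exons overlap Fpr3 on the same strand. Neutrophil precursor markers summed higher in every bone marrow library, and their part in the falls of Fpr2, Abcc4, Mgst2 and Ptgr1 was not tested. Ltb4r2, the low-affinity leukotriene B4 receptor that neighbours Ltb4r1, was called higher at 2.16 ± 0.58 but had only 18 reads from bone marrow and 61 from small intestine, and its libraries overlapped. The call was lost after quantile normalisation (limma adjusted p = 0.133) and without BM_3, BM_5, SI_10, SI_11 or SI_7, and the ratio of means moved from 5.19 to 23.9 without BM_1. Oxgr1 and Gpr17, also called higher, had 1 and 2 reads from bone marrow and 17 and 16 from small intestine. The libraries of Gpr17 overlapped. Both calls were lost after median-centring and without BM_3 or SI_7, and that of Gpr17 also without SI_10.

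Membrane arachidonate turnover and lipoxygenase partners had 5 of 7 genes called higher, against 22% of all genes called higher. In the fit of genes averaging 10 reads or more alone, 39.2% were called higher. The others, Gpx4 and Acsl3, did not pass at 0.61 and 0.38. Gpx4 passed without BM_3 or SI_6, at 0.69 and 0.72, and after quantile normalisation, at 0.68. After median-centring Gpx4 and Acsl3 turned to -0.29 and -0.52. Lpcat2, which rebuilds phospholipids and makes platelet-activating factor, rose by 3.89 ± 0.19, from between 431 and 521 normalised counts in bone marrow to between 6070 and 8418 in small intestine. Acsl4, which activates arachidonic acid for storage in membranes, rose by 2.43 ± 0.26. Cotl1, a partner of 5-lipoxygenase, Mboat7 and Lpcat3 rose by 1.55, 1.54 and 1.24, and the calls of these 3 were lost after median-centring, at 0.65, 0.64 and 0.34. Exons of Lpcat2, Mboat7, Lpcat3 and P2ry12 also overlap genes on the opposite strand.

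The other phospholipases A2 were low, and only Pla2g4e of 8 was called, at 1.85 ± 0.59 with 11 reads from bone marrow and 40 from small intestine (limma adjusted p = 0.0387). That call was lost under median-centring and quantile normalisation (limma adjusted p = 0.0962 and 0.125) and without BM_1, BM_4 or any 1 of the small intestine libraries. Among the 4 other lipoxygenases, 2 were called higher. For both lists, the share over all genes was 34.9% called and 22% called higher. Alox12e, a neighbour and relative of Alox15 on chromosome 11, had 3.06, 1.30, 1.91 and 27.0 normalised counts in BM_1, BM_3, BM_4 and BM_5 and 231, 210, 119 and 183 in SI_10, SI_11, SI_6 and SI_7. It rose by 4.52 ± 0.60 (limma adjusted p = 0.00053), 22.3-fold by mean normalised counts or 88.7-fold without BM_5. The treatment of reads that match both genes is not given in the sources used here. Alox12b was called at 1.91 ± 0.63 with 9 and 52 reads and overlapping libraries. Its call was lost under the same scalings (limma adjusted p = 0.0789 and 0.153) and on leaving out any 1 library other than BM_5, and the ratio of means moved from 7.48 to 31.4 without BM_5 and to 3.53 without SI_10.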

How the data were processed

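Gene expression was measured by RNA-seq in 8 libraries, 4 per tissue. Per the methods, the authors aligned reads to GRCm38 (Ensembl release 86), obtained gene counts through the nf-core/rnaseq workflow and deposited log2-like values from the variance stabilisation of DESeq2. The submitters' notes name DESeq2 and R 4.0.3. For the aligner, strand setting and multi-mapping reads, settings were not given in the sources used here. Columns named a tissue but no single sample, so each library was assigned to its tissue only.

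The transformation was inverted from its lowest value, 0.92971568. Multiplied by a size factor per library, all values were whole reads within 0.05 reads. Totals were between 11508002 and 21289164 reads, and 22177 genes had a mean under 10 reads, where precision is lowest. No pair of libraries of a tissue agreed within counting noise. Per the study, the replicates are separate mice, 4 for each tissue, and p-values measure the spread between them.

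The tissue comparison used the deposited log2 values of all 38392 genes and limma (version 3.58.1, under R version 4.3.3), with a constant prior, no filter and no covariate, 2-sided. The authors used a count model. Since the deposited values are log2-like, limma was the main test here, and voom on the recovered reads an alternative. SE are limma's. TPM used the union of exons in GENCODE M21 (GRCm38), which held all 38392 identifiers. The test was tested on simulated data. Other steps used Python 3.11.15, numpy 2.4.6 and pandas 2.3.3.

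The members and lists were chosen with earlier results of these data known. Named were all members, in each of the 6 pathway lists the called genes with the largest rise and fall and those called with over 1000 normalised reads in a tissue, the 3 genes nearest in profile to 2 members, and markers. Ggt5, Mgst3, Cyp4f14, Ephx2, Cmklr1, Ltb4r2, Oxgr1, Gpr17, Gpx4, Acsl3 and Alox12b were named after their values were seen. The 7 B cell markers, compared for completeness, summed to between 407 and 676 normalised counts in bone marrow and 149 and 269 in small intestine. Alternatives were median-centring, quantile normalisation, a filter at the 25th percentile, log2(normalised count + 1), voom, an intensity trend and leaving out each library.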

Additional observations from a re-analysis of the deposited data

Results flagged for a closer look

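Dixon's test at the 95% level, which relates the distance between an extreme library and its neighbour to the whole range of the 4, picked out the values given here. This was so in 15 of 98 groups of 4 values. A chance rate of about 1 in 20 holds for normally distributed values. It need not hold for these counts, some of which were 0, so no excess is read from it.

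Among the members, SI_6 was set apart as the lowest intestinal library for Alox15, at 16437 normalised counts, and for Pla2g4a, at 3362. SI_11 was set apart as the highest intestinal library for Ltb4r1, at 427.

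Among other genes of the pathway, BM_4 was low for Acsl4 (400.0 normalised counts), BM_5 for Cotl1 (627) and BM_1 for Fpr2 (65.9). SI_10 was high for Pla2g4e (23.0) and Pla2g4f (25.2).

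The rest had fewer reads still. SI_11 was low for Pla2g4b (0 normalised counts) and Gpr17 (1.19). In the remaining 5 groups the other 3 libraries had no reads at all, namely BM_5 for Pla2g5 (5.58), Oxgr1 (0.930) and Gpr17 (1.86), BM_3 for Gpr31b (3.26) and SI_7 for Gpr31b (1.39).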

How the results depend on the processing

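Alox15, Alox5, Pla2g4a and Ltc4s remained higher and Ltb4r1 lower, past the threshold, under all alternatives tried. Scaling mattered most. The median difference of all genes was 0.37 as reported, -0.53 after median-centring and -0.03 after quantile normalisation. The share of calls that were higher fell from 63.2% to 29.5% and 45.8%. All genes include 22177 with a mean under 10 reads, and in the fit of genes averaging 10 reads or more the median difference was 0.12. Under median-centring the differences were -0.44 for Alox5ap, -0.41 for Lta4h, -1.26 for Alox12 (now called), 0.90 for Cysltr1 and 0.23 for Cysltr2 (no longer called), and 2 members were called lower. There 14 other pathway genes were called higher, against 23, and over all genes 4285 were called higher and 10216 lower, against 8465 and 4937. Quantile normalisation gave -0.31 for Lta4h and 0.12 for Cysltr2. Alox5ap passed with voom (0.46), an intensity trend (0.46), genes of at least 10 mean reads (0.46) and without BM_5 and SI_6 (0.51). Lta4h passed with the low-value filter (0.49), voom (0.48), the trend (0.49), genes of at least 10 mean reads (0.49) and without BM_5 and SI_6 (0.52). Cysltr2 was not called with voom (1.58) or the trend (1.13). The cause was not tested. Leaving out each library in turn gave 0.34 to 0.57 for Alox5ap, 0.41 to 0.57 for Lta4h and 0.84 to 1.27 for Cysltr2. No paired analysis was possible because the library columns carry no number that the tissues share. Without division by length the order of 9 levels moved by 1 or 2 places.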
